A study of Macaca mulatta with 8 samples.

Results

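Oligodendrocyte precursor nuclei were described in single-nucleus RNA data from the brains of young male rhesus macaques. A nucleus counted as a precursor if at least 4 of 7 marker genes (VCAN, CSPG4, COL9A1, MEGF11, LHFPL3, STK32A and PCDH15) each had at least 1 unique molecular identifier (UMI, 1 counted RNA molecule). Their sum also had to reach 40 per 10000 UMIs of the nucleus. ENPP6 and GPR17, which mark committed cells, could hold at most 1 UMI together, and fewer than 3 of 7 cell cycle genes (MKI67, TOP2A, CENPF, ASPM, BUB1, NUSAP1 and KIF11) could be seen. The rule chose 4167 of 58220 nuclei with at least 500 UMIs and 300 genes, or 7.16% (exact 95% interval 6.95 to 7.37%). Members were thus chosen by their own counts, and the levels of precursors against other nuclei are a description without a test. All intervals are exact 95% intervals and cover counting error only.

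The study compared nuclei of 1 macaque that breathed 2.5 to 3% sevoflurane, an anaesthetic gas, with nuclei of 2 control macaques. The exposures lasted 4 h each, the first at about postnatal day 7, and the labels do not say whether the later 14 and 28 days are ages or intervals. Tissue of each group was mixed and divided into 4 samples, so the 4 samples of a group are aliquots and not separate animals; the sample labels name the hippocampus and the growth protocol the amygdala. The counts come as 1 matrix whose 8 libraries (barcode suffixes 1 to 8) are not tied to samples by any source used here, so no library has a group, no comparison of sevoflurane with control was made, and no p-value is given.

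Oligodendrocyte precursors are the glial cells that divide and differentiate into the myelin-forming oligodendrocytes of the central nervous system. They depend on platelet-derived growth factor, carry the NG2 proteoglycan (CSPG4), express the transcription factors OLIG2 and SOX10, and receive synapses from neurons. On commitment they switch on GPR17, ENPP6 and BCAS1, pass through a premyelinating stage, and then express the myelin genes under MYRF and SOX10.

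The libraries did not look alike, and precursors came mainly from 4 of them. Libraries 1 to 8 held 596, 610, 1120, 1239, 152, 175, 130 and 145 precursors. These were 7.41, 7.43, 11.6, 12.9, 2.61, 2.91, 2.31 and 2.77% of the nuclei, so libraries 1 and 2 resembled each other, libraries 3 and 4 had the highest shares, and libraries 5 to 8 the lowest. The median precursor had 2829 UMIs, between 2680 and 3112 in each library, whereas the median of all other nuclei lay between 3368.5 and 6435 UMIs and was highest in libraries 5 to 8. Newly formed oligodendrocytes (938 nuclei with at least 3 UMIs of ENPP6 and GPR17 and at least 2 of the 4 markers ENPP6, GPR17, BCAS1 and TNS3) numbered 16.4, 13.4, 29.6, 28.7, 8.55, 12, 14.6 and 12.4 for every 100 precursors. Mature oligodendrocytes (6347 nuclei) numbered 1.24, 1.18, 2.12, 1.81, 0.401, 0.434, 0.523 and 0.497 for each precursor. Both ratios were highest in libraries 3 and 4, and in libraries 5 to 8 precursors outnumbered mature oligodendrocytes.

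**Figure D1:**
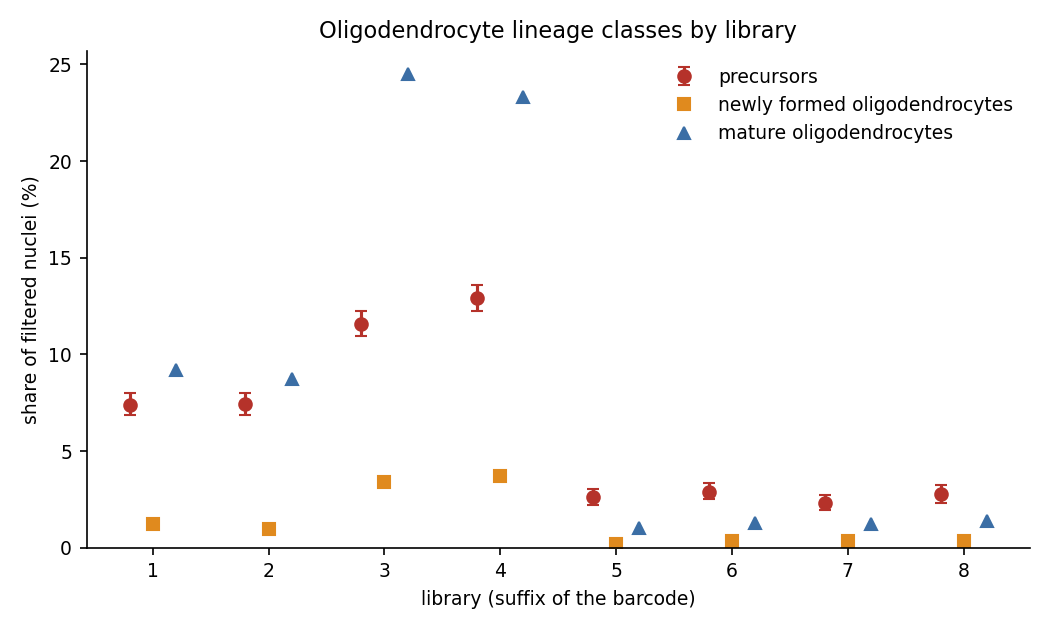
Share of filtered nuclei (%) that met the rule of precursors (circles, with exact 95% intervals), newly formed oligodendrocytes (squares) and mature oligodendrocytes (triangles) in each of the 8 libraries. Precursors made up 7.41 to 12.9% of libraries 1 to 4 and 2.31 to 2.91% of libraries 5 to 8.

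Some precursors also met the rule of another class, and this differed between libraries. Of the 4167 precursors, 163 also met the astrocyte rule and 130 the mature oligodendrocyte rule, and 290 (6.96%) met any other rule. The astrocyte overlap was 2.18, 2.30, 1.96 and 1.61% of the precursors in libraries 1 to 4, against 21.1, 12, 17.7 and 12.4% in libraries 5 to 8. The 8 astrocyte markers together reached 1060 to 1134 CPM (UMIs of a gene per 1000000 UMIs of the class) in precursors of libraries 1 to 4, and 2547 to 3554 CPM in those of libraries 5 to 8. Without nuclei that met another rule these sums were 845 to 973 CPM in libraries 1 to 4 and 1037 to 1951 CPM in libraries 5 to 8. All 8 astrocyte markers were at 10 CPM or more in precursors, none was at 0, and their part in the results below was not tested. Of 59318 barcode sequences, 429 occurred in more than 1 library, which touched 62 precursors; 1 barcode sequence was a precursor in more than 1 library.

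The label was checked against genes that the rule did not use. OLIG2 lay at 28.8, 46.8 and 60.3 CPM (lowest, median and highest of the 8 libraries) in precursors, against 0.93, 2.98 and 11.5 CPM in all other nuclei of the same libraries. SOX10 lay at 113, 132 and 146 CPM in precursors, against 21.3, 24.5 and 54.0 CPM in the other nuclei. Neither gene's library ranges overlapped between the classes, and pooled over libraries OLIG2 was 11.1-fold higher (10.1 to 12.1) and SOX10 4.14-fold higher (3.94 to 4.36). PDGFRA, the platelet-derived growth factor receptor that defines these cells in rodents and humans, has no row under that symbol. The row ENSMMUG00000017395 is called FIP1L1 in the files and PDGFRA in the symbol table, and which of these 2 genes its counts come from cannot be told apart. That row stood at 766, 951 and 1117 CPM in precursors, against 320.4, 386 and 461 CPM in the other nuclei, without overlap, and was 2.66-fold higher (2.61 to 2.70) when pooled. The 6 general neuron markers in the matrix summed to 3044 CPM in precursors and 10818 CPM in the other nuclei, and 8 markers of excitatory neurons to 2204 CPM in precursors and 5157 CPM in the other nuclei. The 8 markers of inhibitory neurons summed to 3662 CPM in precursors and 2927 CPM in the other nuclei, of which the neuregulin receptor gene ERBB4 made up 2866 CPM in precursors and 1896 CPM in the other nuclei; the other 7 were lower in precursors. Markers of microglia summed to 142 to 175 CPM in precursors and 256 to 336 CPM in the other nuclei of libraries 1 to 4, but to 261 to 374 CPM in precursors and 136 to 143 CPM in the other nuclei of libraries 5 to 8. Those of endothelium summed to 69.7 to 144 CPM per library in precursors and 99.3 to 212 CPM in the other nuclei. None of these markers was at 0 in precursors, and their part in the ratios was not tested.

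Levels of the 7 rule markers were set side by side between libraries. Their summed UMIs chose the nuclei, so their spread is not independent of the rule. LHFPL3 (5406 CPM) and PCDH15 (2907 CPM) were the largest parts of the pooled sum of 11558 CPM. LHFPL3, a tetraspan membrane protein, had 5046, 5016, 5793, 5692, 4465, 5427, 5038 and 5251 CPM in precursors of libraries 1 to 8, and PCDH15, a protocadherin, 2826, 2959, 3029, 3132, 2249, 2464, 2465 and 2564 CPM. These 2 markers differed least between libraries, 1.297-fold and 1.39-fold between the highest and the lowest. VCAN, the chondroitin sulfate proteoglycan versican, had 751, 811, 1104, 1092, 247, 224, 255 and 247 CPM, which is 4.92-fold between the extremes. STK32A, a serine/threonine kinase, had 633, 624, 742, 729, 267, 262, 257 and 265 CPM. Both were lower in every library from 5 to 8 than in any from 1 to 4, in precursors and in the other nuclei alike. MEGF11 and COL9A1, a collagen IX chain, differed 1.65-fold and 1.67-fold between libraries. CSPG4, the NG2 proteoglycan, stood at 28.5, 36.8 and 53.9 CPM in precursors, against 0.371, 0.567 and 0.78 CPM in the other nuclei. With each nucleus thinned to 1000 UMIs, a CSPG4 UMI was seen in 3.85% of precursors (10.3% before thinning), against 0.0797% of mature oligodendrocytes and 0.095% of astrocytes (medians 2829, 2947 and 2457 UMIs before thinning).

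Nuclei next to the thresholds graded into the precursors. Precursors with summed markers of 40 to 45 per 10000 UMIs (76 nuclei) held 1146 CPM of PTPRZ1 and 400.1 CPM of the neuronal gene RBFOX3, and nuclei at 35 to 40 (97 nuclei, outside the rule) 934 and 454 CPM. Both sets differed from all precursors, which held 2339 CPM of PTPRZ1 and 81.4 CPM of RBFOX3, and their median depths of 6281.5 and 8505 UMIs were above the 2829 UMIs of all precursors. At the other edge, 769 precursors with 1 UMI of ENPP6 or GPR17 held 1799 CPM of BCAS1, and 292 nuclei with 2 UMIs, outside the rule, 3880.2 CPM. The 35 precursors with 2 cycling genes held 355 CPM of DIAPH3 and 73.8 CPM of HELLS, and 99 nuclei with 3 or more, outside the rule, 1834 and 233 CPM.

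The first comparison asked where precursors stand apart from all other nuclei of the tissue, neurons and other glia together. A gene counted as higher or lower if it reached 10 CPM in either class, differed at least 2-fold, and kept its direction in all libraries where each class had 50 nuclei or more. Of 9956 genes measured, 635 (6.38%) were higher in precursors and 1009 (10.1%) lower. In libraries 1 to 4 alone, a setting added after seeing the data, 583 were higher and 1167 lower, and 499 and 811 of these were also called in all libraries. Matrix genes, lineage transcription factors and the guidance gene NTN1 were among those higher, and most GABA-A subunits and many guidance genes among those lower. Of the 17 measured precursor identity genes outside the rule, 15 were higher and none lower. Their median log2 ratio was 2.42, beside -0.0022 for all measured genes. These lists were drawn up with earlier results of these data known, so their counts describe the nuclei and are no independent evidence.

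Outside the rule markers, SUSD5 and C1QL1 had the largest ratios among the genes named here. SUSD5, a sushi domain protein, stood at 66.6, 109.8 and 161 CPM in precursors, against 3.39, 4.27 and 7.73 CPM in the other nuclei. C1QL1, a secreted C1q-like ligand, stood at 84.9, 89.7 and 113 CPM in precursors, against 2.20, 3.64 and 5.22 CPM in the other nuclei. For both genes every library of precursors lay above every library of other nuclei, and pooled they were 27.3-fold higher (25.6 to 29.2) and 23.8-fold higher (22.0 to 25.8). NTN1, the guidance cue netrin-1, had 399 CPM in precursors and 25.2 CPM in the other nuclei and was 15.8-fold higher (15.3 to 16.4). Against newly formed oligodendrocytes alone, NTN1 was called neither higher nor lower. SPRY4, a feedback inhibitor of receptor tyrosine kinases, had 91.4 CPM in precursors and 5.56 CPM in the other nuclei and was 16.5-fold higher (15.3 to 17.7). After thinning to 1000 UMIs, a SUSD5 UMI was seen in 13.5% of precursors, against 0.175% of mature oligodendrocytes and 0.332% of astrocytes.

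**Figure D2:**
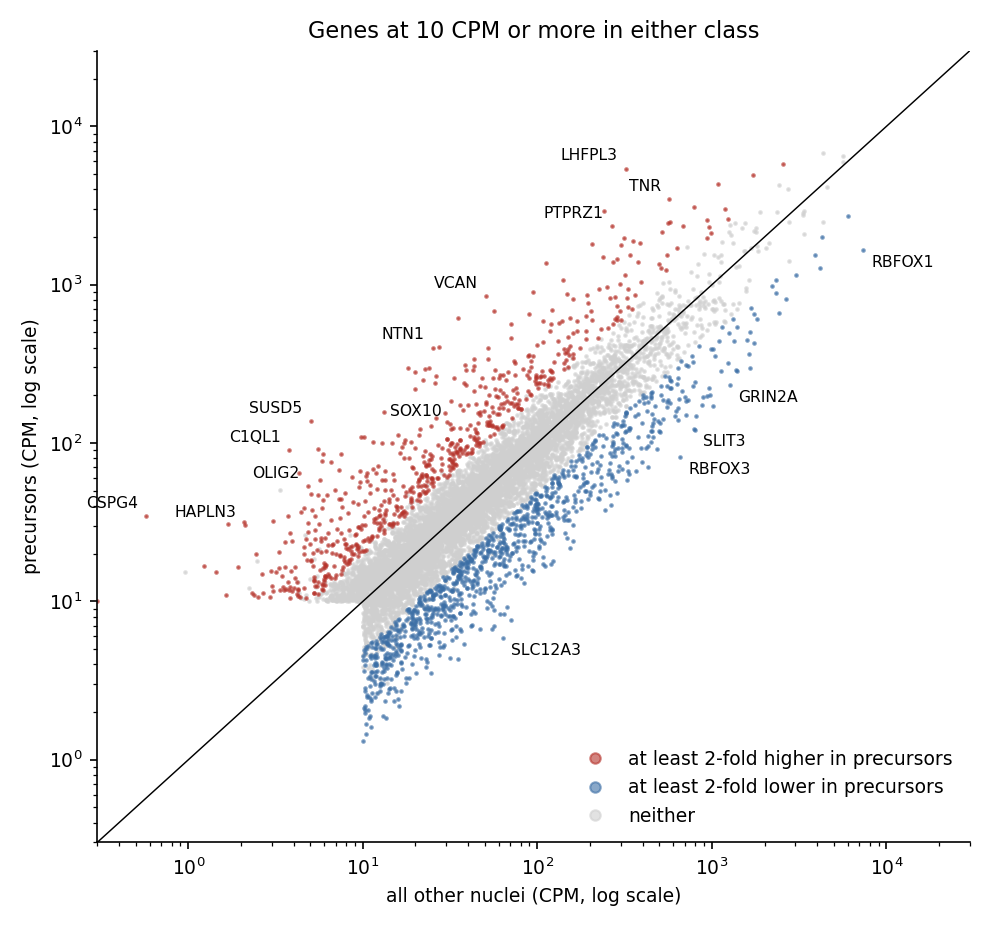
Level of each of 9956 genes in precursors (vertical) and in all other nuclei (horizontal), in CPM on log scales, over all libraries. Red points are the 635 genes at least 2-fold higher in precursors and blue points the 1009 at least 2-fold lower; the line marks equal levels.

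Among 24 measured lineage transcription factors, 9 were higher in precursors and 1 lower. NKX2-2, a homeobox factor of the oligodendrocyte lineage, had 85.2 CPM in precursors and 7.51 CPM in the other nuclei (11.4-fold higher, interval 10.6 to 12.2). Within the lineage NKX2-2 was highest in newly formed oligodendrocytes, against which precursors were neither higher nor lower by the 2-fold call. SOX6 stood at 1336, 1657 and 1959 CPM in precursors, against 103, 154 and 386 CPM in the other nuclei. The 1 lower factor was MYT1L, which is known from neurons, with 202 CPM in precursors and 979 CPM in the other nuclei. Of 14 Notch, BMP and ID genes, 3 were higher and 1 lower. The receptor NOTCH1 was 4.98-fold higher (4.63 to 5.35) and DLL3, a ligand that inhibits Notch signalling, 13.6-fold higher (11.5 to 16.1). Of 19 receptors for growth factors and hormones, 6 were higher and 1 lower (RARB, whose call ended with 5 of 7 markers, without simulated doublets and without precursors that met another rule). PTPRZ1, a receptor phosphatase that binds pleiotrophin, stood at 1771, 2236 and 2472 CPM in precursors, against 176, 244 and 387 CPM in the other nuclei, and was 8.75-fold higher (8.63 to 8.86). GPR37L1, an orphan G protein-coupled receptor, was 4.36-fold higher, but was not called against newly formed oligodendrocytes. Of 20 Wnt pathway genes, 7 were higher and none lower, led by LRP4 at 219 CPM in precursors and 19.8 CPM in the other nuclei.

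Among genes of the extracellular matrix, more were higher than lower in precursors. Of 20 measured proteoglycans, tenascins, link proteins and their modifying enzymes, 12 were higher and 2 lower, with a median log2 ratio of 1.47. HAPLN3, a link protein that ties hyaluronan to proteoglycans, stood at 25.9, 32.1 and 49.3 CPM in precursors, against 1.63, 2.07 and 2.65 CPM in the other nuclei, and was 14.3-fold higher (12.6 to 16.2). TNR, the matrix protein tenascin-R, had 3451 CPM in precursors and 567 CPM in the other nuclei, with a library range in precursors from 1488 to 3913 CPM. The 2 lower genes were the extracellular sulfatase SULF1, with 10.2 CPM in precursors and 31.4 CPM in the other nuclei, and the chondroitin synthase CHSY3, with 235 CPM in precursors and 631 CPM in the other nuclei. Of 14 collagen and basement membrane genes, 6 were higher and 1 lower. LAMA4, a laminin chain, was 12.5-fold higher (12.01 to 12.97) and COL9A3, a partner chain of the rule marker COL9A1, 8.27-fold higher (7.45 to 9.17). Of these, COL9A3 was also higher against newly formed oligodendrocytes, and LAMA4 was not called there.

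Guidance and synaptic adhesion genes had members called in both directions, beside 6.38% of all measured genes higher and 10.1% lower. Of 31 axon guidance genes, 4 (12.9%) were higher and 13 (41.9%) lower, with a median log2 ratio of -0.72. SEMA5A, a transmembrane semaphorin, stood at 1541, 1909.6 and 2055 CPM in precursors, against 146, 291 and 482 CPM in the other nuclei, without overlap. SLIT3, a secreted ligand of ROBO receptors, had 121 CPM in precursors and 800.2 CPM in the other nuclei and was 6.597-fold lower (6.29 to 6.93). Of 30 synaptic adhesion genes, 3 (10%) were higher, 6 (20%) lower and 21 neither. DSCAM was 2.85-fold higher (2.83 to 2.88) at 4903 CPM in precursors, and the teneurin TENM2 6.45-fold lower (6.14 to 6.77) at 122 CPM. Neither gene was called against newly formed oligodendrocytes.

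Among receptor and channel genes, most GABA-A subunits were lower in precursors than in the other nuclei, and in the other lists at least as many members were neither as were called. Of 17 AMPA, kainate, NMDA and delta subunits, 1 was higher and 5 were lower. GRIN1, the subunit that every NMDA receptor contains, stood at 1.99, 11.4 and 27.0 CPM in precursors, against 27.2, 60.6 and 84.3 CPM in the other nuclei, so the ranges came within 1 CPM of each other without overlap. GRIN2A was 5.44-fold lower (5.25 to 5.63). None of 12 GABA-A subunits was higher and 8 were lower, among them GABRA4 at 14.6 CPM in precursors and 52.5 CPM in the other nuclei and GABRA5 at 17.0 CPM in precursors and 64.7 CPM in the other nuclei. Of 8 metabotropic glutamate and GABA-B receptors, none was higher and 4 were lower, such as GABBR2 (3.41-fold lower). CACNG4, an auxiliary subunit of AMPA receptors, was the 1 gene of 21 sodium and calcium channel genes that was higher, and 8 were lower. It stood at 281, 311 and 327 CPM in precursors, against 33.2, 39.1 and 43.0 CPM in the other nuclei, a narrow range in both. Of 22 potassium and HCN channels, 5 were higher, led by the inward rectifier KCNJ16 (15.4-fold higher, interval 13.6 to 17.4), and 3 lower. Of 15 transporters and calcium-binding genes, 6 were higher and 1 lower, led by the organic cation transporter SLC22A3 (11.8-fold higher, interval 11.2 to 12.5).

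Differentiation and cell cycle lists had more members higher than lower in precursors, while the myelin and cholesterol lists had few members past 2-fold. Of 18 early differentiation genes, 6 were higher and 1 lower, with BCAS1 at 454, 711 and 1074 CPM in precursors, against 23.8, 66.6 and 403 CPM in the other nuclei. These ranges did not overlap, and the other nuclei were highest in libraries 3 and 4, which held the most newly formed oligodendrocytes (3.43 and 3.70% of nuclei). Of 17 mature myelin genes, 1 was higher and none lower; this gene, FA2H, lost its call without precursors that met another rule and in libraries 1 to 4 alone. None of 16 cholesterol synthesis genes was higher and 1 was lower. Of 12 replication and cell cycle genes outside the rule, 5 were higher, among them the G1 cyclin CCND1 (9.46-fold higher, interval 8.63 to 10.4) and the chromatin remodeller HELLS (3.34-fold higher, interval 3.05 to 3.66), and 1 was lower. None of 8 immediate early and stress genes was higher and 1 was lower. The calls of these lower genes, CDK6 and NR4A1, ended with equal weights of libraries. Among the genes lower in precursors were RBFOX3, a neuronal splicing factor that stood at 38.9, 109.8 and 258 CPM in precursors, against 361, 702 and 923 CPM in the other nuclei, and SLC12A3, a sodium chloride cotransporter, at 5.85 CPM in precursors and 63.2 CPM in the other nuclei. The RBFOX3 ranges did not overlap, and pooled the genes were 8.06-fold lower (7.60 to 8.56) and 10.8-fold lower (8.68 to 13.6).

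Some of these ratios moved by over 1.5 times with the libraries, the free RNA or the threshold, without a change of direction. In libraries 1 to 4 alone the log2 ratio against the rest was 2.79 for OLIG2 (3.47), 3.54 for STK32A (4.15) and 1.88 for BCAS1 (2.57), with the value of all libraries in parentheses. Once 5% of the profile of all nuclei was taken off each class as free RNA, the log2 ratio was -3.65 for RBFOX3 (-3.01), -3.67 for GRIN1 (-3.03) and -4.42 for SLC12A3 (-3.43). Libraries weighted equally gave -2.37 for RBFOX3 (-3.01), -2.22 for GRIN1 (-3.03) and -2.04 for SLIT3 (-2.72), and a marker threshold of 60 per 10000 gave -4.26 for RBFOX3 (-3.01), -2.90 for MYT1L (-2.28), -4.07 for GRIN1 (-3.03), -4.15 for SLC12A3 (-3.43), -3.45 for SLIT3 (-2.72) and -3.39 for TENM2 (-2.69).

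**Figure D3:**
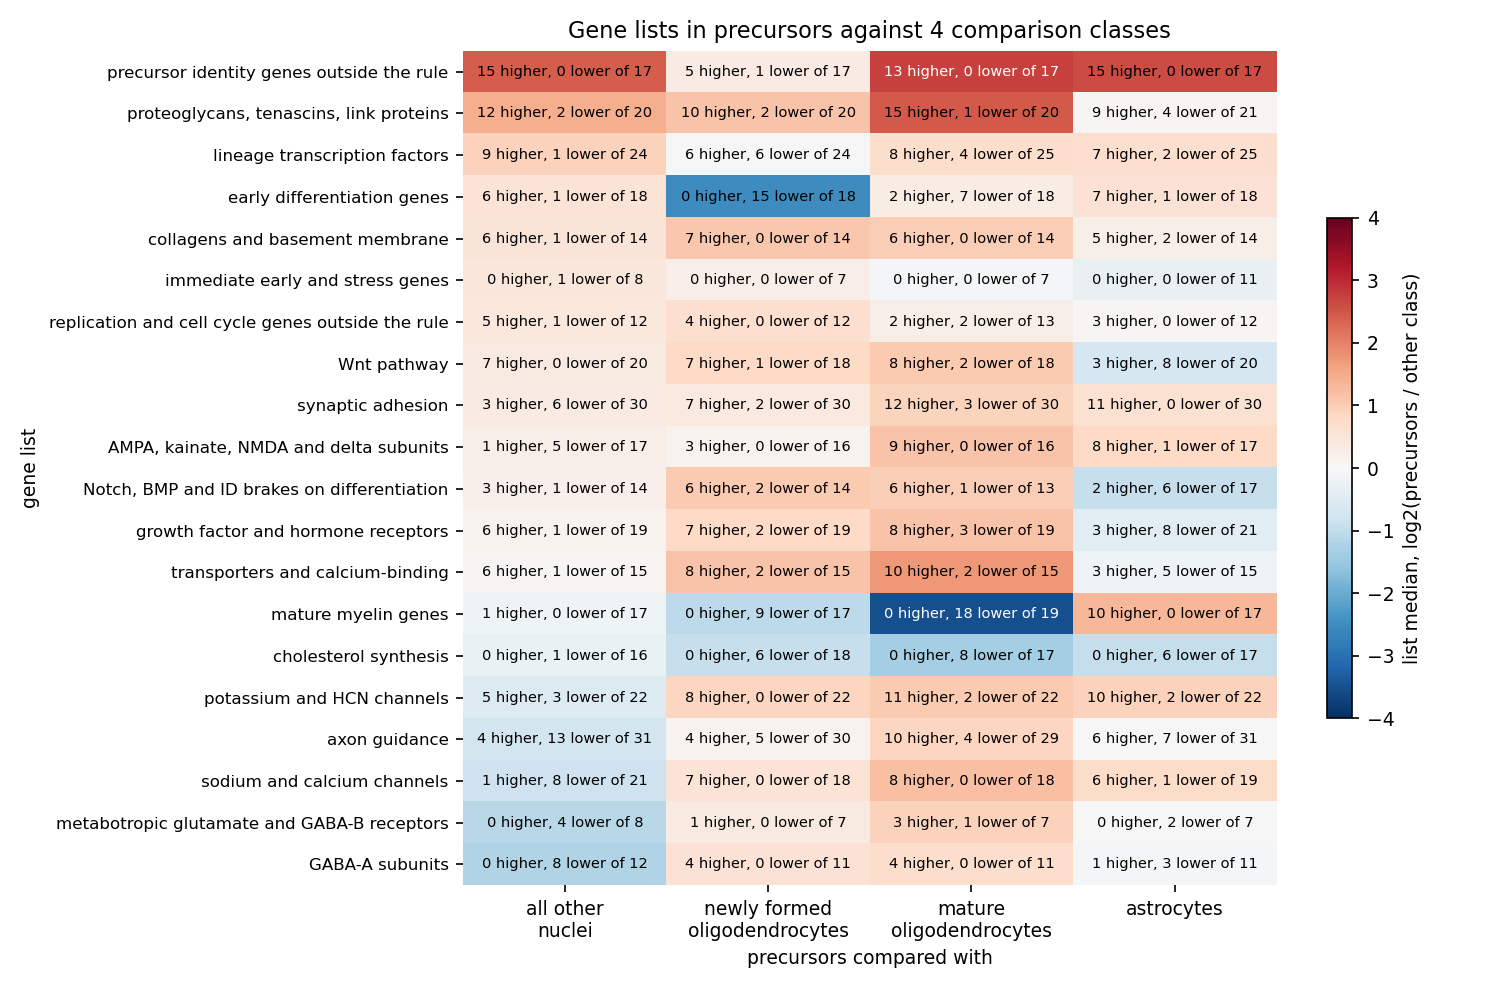
Median log2 ratio of precursors to each of 4 comparison classes (colour) for 20 gene lists (rows), with the number of members at least 2-fold higher or lower in precursors, of those measured. Of 17 precursor identity genes, 15, 13 and 15 were higher against all other nuclei, mature oligodendrocytes and astrocytes, and 5 against newly formed oligodendrocytes. Early differentiation genes stood out against newly formed oligodendrocytes (15 of 18 lower) and myelin genes against mature oligodendrocytes (18 of 19 lower). Both lists hold genes that helped choose those classes, such as BCAS1 and TNS3 for newly formed nuclei and MBP for mature ones.

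The next comparison set precursors against newly formed oligodendrocytes, the stage after commitment. Only libraries 1 to 4 held at least 50 nuclei of both classes, so the direction was checked in these 4. Of 9485 genes measured, 940 (9.91%) were higher in precursors and 458 (4.83%) lower. The median of all measured genes was 0.22 on the log2 scale, so precursors had more genes above than below newly formed nuclei, and trimmed-mean (TMM) scaling, which takes a shift of 0.22 off each log2 ratio, gave 654 higher and 612 lower. In libraries 1 to 4 alone 1055 were higher and 495 lower. Early differentiation genes were the clearest group, with 15 of 18 lower in precursors and none higher (median log2 ratio -2.50). Among these 15, BCAS1 and TNS3 entered the rule of newly formed nuclei, so their lower level is partly set by that choice.

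FRMD4A, a scaffold protein of cell polarity, reached 1703, 1884 and 2182 CPM (lowest, median and highest of the 4 libraries) in precursors, against 21265, 22474 and 25530.4 CPM in newly formed oligodendrocytes. TMEM108, a transmembrane protein, reached 545, 797 and 907 CPM in precursors, against 8625, 9577 and 9816 CPM in newly formed oligodendrocytes. Both ranges stood about an order of magnitude apart, and pooled the genes were 10.5-fold lower (10.4 to 10.6) and 12.2-fold lower (11.9 to 12.4). BFSP2, a protein first known from lens filaments, was 28.1-fold lower (22.4 to 35.7) and the kinase CDK18 27.3-fold lower (22.8 to 32.9). MYRF, the transcription factor that switches on myelin genes, had 29.5, 38.4 and 42.3 CPM in precursors, against 294, 309 and 319 CPM in newly formed oligodendrocytes. The ranges did not overlap, and pooled MYRF was 7.91-fold lower (7.17 to 8.74) and TCF7L2, a Wnt effector that marks premyelinating cells, 6.51-fold lower (5.84 to 7.27). The semaphorins SEMA4D and SEMA3E were 10.3-fold lower and 8.48-fold lower. Of 18 cholesterol synthesis genes 6 were lower and none higher, among them MVK (4.03-fold lower) and FDFT1 (3.21-fold lower), and the choline transporter SLC44A1 was 2.83-fold lower. Of 17 myelin genes, 9 were lower and none higher, with MBP at 584 CPM in precursors and 5489 CPM in newly formed oligodendrocytes.

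Higher in precursors than in newly formed oligodendrocytes were growth control, matrix and channel genes. SPRY4 had 80.9, 86.1 and 99.6 CPM in precursors, against 0, 2.02 and 4.72 CPM in newly formed oligodendrocytes, and was 19.0-fold higher (12.9 to 29.2). Newly formed nuclei of libraries 1 and 2 held no SPRY4 count, so the ratio rests on few counts there. EHD4, which acts in endocytic recycling, was 9.88-fold higher (7.17 to 14.0), CSPG5, a brain proteoglycan, 9.01-fold higher (7.05 to 11.7), and UHRF1, which maintains DNA methylation at replication, 7.80-fold higher (5.82 to 10.7). Of 19 receptors, 7 were higher and 2 lower, with the leukaemia inhibitory factor receptor LIFR 6.97-fold higher (5.92 to 8.26), EGFR 5.33-fold higher (4.69 to 6.08) and the lysophosphatidic acid receptor LPAR1 6.604-fold lower (6.11 to 7.15). Of 14 Notch, BMP and ID genes, 6 were higher and 2 lower, but both lower genes (BMP4 and MAML2) were neither with summed markers of at least 60 per 10000, with 5 of 7 markers or with at least 1000 genes. NOTCH1 stood at 66.9 CPM in precursors and 10.6 CPM in newly formed oligodendrocytes. Of 24 transcription factors 6 were higher, led by the zinc finger factors MYT1 (6.92-fold higher) and ZEB1 (4.69-fold higher), and 6 lower. Of 20 proteoglycan and tenascin genes 10 were higher and 2 lower, and CHST11, which sulfates chondroitin, had 1723, 1831 and 1921 CPM in precursors, against 361, 415 and 431 CPM in newly formed oligodendrocytes. Of 14 collagen and basement membrane genes 7 were higher and none lower.

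Ion channel genes were also more often higher than lower. Of 18 sodium and calcium channel genes 7 (38.9%) were higher in precursors and none lower. Of 22 potassium and HCN channels 8 (36.4%) were higher and none lower. Among all measured genes 9.91% were higher and 4.83% lower. CACNG4 had 285, 319.8 and 327 CPM in precursors, against 50.9, 51.8 and 55.1 CPM in newly formed oligodendrocytes, without overlap (5.37-fold higher, interval 4.79 to 6.04). KCNJ16 was 9.03-fold higher (5.71 to 15.1). Of 16 ionotropic glutamate subunits 3 were higher and none lower, but their median log2 ratio of 0.13 was below the 0.22 of all measured genes. Of 11 GABA-A subunits 4 were higher, led by GABRB1 (row ENSMMUG00000004314, 3.12-fold higher), and none lower. Of 30 synaptic adhesion genes 7 were higher, led by the adhesion phosphatase PTPRT (4.59-fold higher), and 2 lower, among them CADM2 (2.86-fold lower). CCND1 was 7.19-fold higher (5.14 to 10.4), and the Wnt inhibitor APCDD1 5.95-fold higher.

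Most precursor identity genes did not pass 2-fold against newly formed nuclei. Of the 17 identity genes, 5 were higher in precursors, 1 was lower and 11 were neither. Of the rule markers, CSPG4 was 10.3-fold higher (6.47 to 17.6), MEGF11 3.096-fold higher (2.95 to 3.25) and PCDH15 2.15-fold higher (2.10 to 2.20). Outside the rule, the FIP1L1 or PDGFRA row was 2.85-fold higher (2.72 to 2.99). The rule markers VCAN, COL9A1, LHFPL3 and STK32A were within 2-fold, at 849.7, 678, 5406 and 618 CPM in precursors, against 669, 797, 3072 and 990.2 CPM in newly formed oligodendrocytes. STK32A and COL9A1 thus had the higher level in newly formed nuclei. SMOC1, a secreted calcium-binding protein, was 2.66-fold lower (2.57 to 2.76). TMM scaling ended the PCDH15 call. Without simulated doublets or without precursors that met another rule, the log2 ratio of MBP was -4.21 or -4.48 (-3.23 with all nuclei), and equal weights of libraries gave 5.33 for SPRY4 (4.25).

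Precursors were also split at the ENPP6 and GPR17 threshold, which gave 4 stages: 3398 precursors with 0 UMIs, 769 with 1 UMI, newly formed and mature oligodendrocytes. ENPP6 and GPR17 defined the stages and are no result, and BCAS1 and TNS3 entered the rule of newly formed nuclei, so their level there is partly set by that choice. BCAS1 had 639, 1799, 4862 and 399 CPM at these stages in that order. TMEM108 had 528, 1615, 9086 and 211 CPM, and FRMD4A 1670.5, 3681, 21797 and 1088 CPM. Each was higher in precursors with 1 UMI than in those with 0, highest in newly formed nuclei and lower again in mature ones. After thinning to 1000 UMIs, BCAS1 was seen in 32.8% of the precursors with 0 UMIs, 50.7% of those with 1 UMI, 90.6% of newly formed and 31.4% of mature nuclei. Before thinning these shares were 57.9, 73.6, 98.2 and 62.1%, and the median depths were 2789.5, 3028, 4734 and 2947 UMIs. Of 18 early differentiation genes, 14 were highest in newly formed nuclei, beside 13.8% of the 9881 genes at 10 CPM or more in any stage.

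Other genes followed another order over the stages. PTPRZ1 had 2372, 2212, 647 and 122 CPM, MYT1 240.2, 232, 34.5 and 7.84 CPM and SPRY4 97.0, 69.4, 4.82 and 1.87 CPM, lower at each step. TNR had 3394, 3674, 3603 and 121 CPM, so it stayed at the precursor level in newly formed nuclei and was low in mature ones. SOX6 had 1659.5, 2374, 3529 and 158 CPM and SEMA5A 1852, 2439.7, 3554 and 297 CPM, both highest in newly formed nuclei. SOX10 had 130.3, 136, 193 and 138 CPM, a narrow range, and OLIG2 54.2, 49.5, 29.1 and 20.5 CPM. Of 20 proteoglycan and tenascin genes, 12 were lower at each step, beside 14.7% of all genes. MYRF had 29.6, 73.8, 305 and 254 CPM and MBP 507, 890.4, 5489 and 13432 CPM. Free RNA of a transcript as abundant as MBP was not measured here, so its low level in precursors is not read as expression. Of 19 myelin genes, 15 were higher at each step, beside 6.32% of all genes. IDI1, an enzyme of cholesterol synthesis, had 39.9, 50.99, 99.1 and 194 CPM, and 7 of 18 genes of that pathway were higher at each step.

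**Figure D4:**
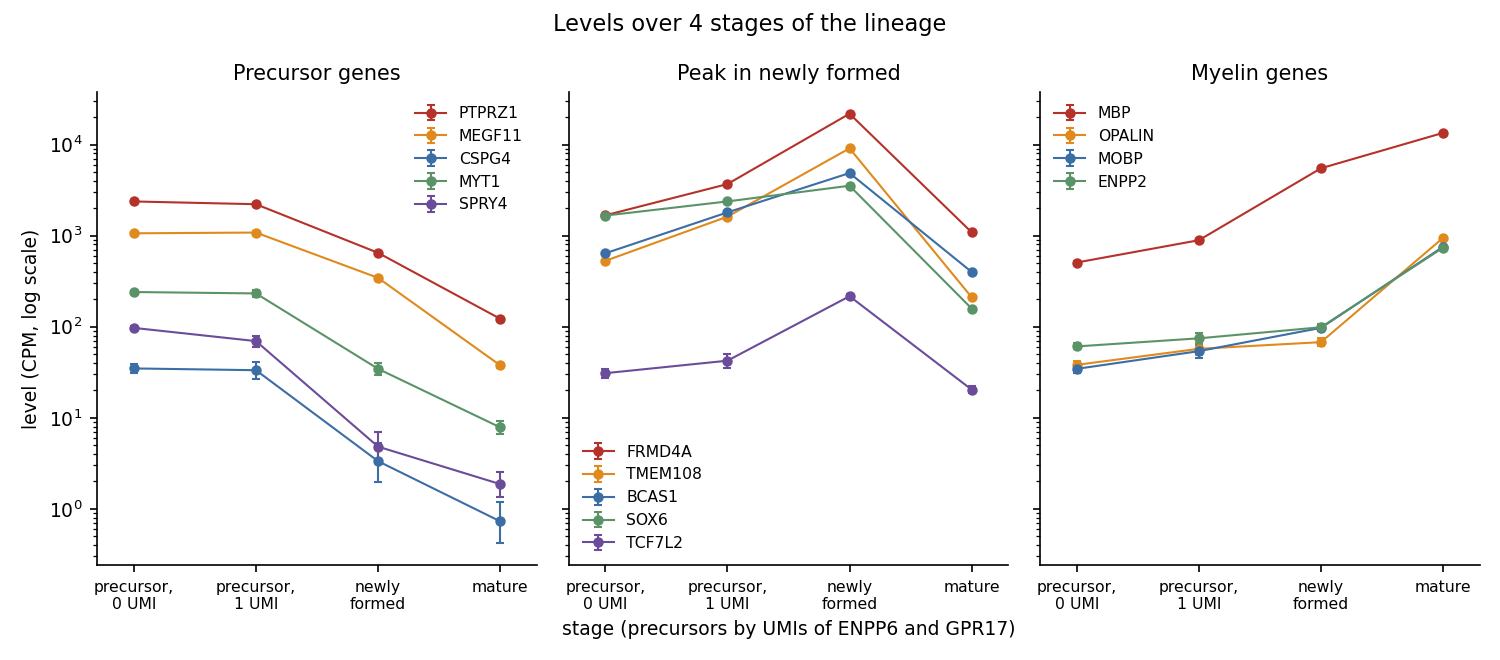
Levels (CPM, log scale, with exact 95% intervals) over 4 stages: precursors with 0 and with 1 UMI of ENPP6 and GPR17, newly formed and mature oligodendrocytes. PTPRZ1 fell at each step, BCAS1 and FRMD4A were highest in newly formed nuclei, and MBP was highest in mature ones.

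The third comparison set precursors against mature oligodendrocytes, which make myelin. Of 9647 genes measured, 1054 (10.9%) were higher in precursors and 663 (6.87%) lower; TMM scaling shifts these log2 ratios by 0.10. In libraries 1 to 4 alone 1315 were higher and 839 lower. Of 19 myelin genes 18 were lower and none higher, with a median log2 ratio of -3.52. MBP, MOBP and ST18 are among the markers that chose the mature class, so their lower level in precursors follows from that choice. MBP, myelin basic protein, stood at 245, 372 and 869 CPM (lowest, median and highest of 8 libraries) in precursors, against 7240.1, 9973 and 14468 CPM in mature oligodendrocytes. OPALIN, a membrane protein of myelinating cells, stood at 11.9, 23.6 and 68.2 CPM in precursors, against 344, 656 and 1010.0 CPM in mature oligodendrocytes. No library range overlapped, and MBP was 23.0-fold lower (22.5 to 23.5), OPALIN 22.5-fold lower (20.8 to 24.5), MOBP 19.7-fold lower (18.0 to 21.5) and the ubiquitin ligase RNF220 21.5-fold lower (20.6 to 22.4). Of 17 cholesterol synthesis genes 8 were lower and none higher. Of the lower genes of highest level, the RNA-binding protein QKI stood at 2582 CPM in precursors and 7600.3 CPM in mature oligodendrocytes and the protocadherin PCDH9 at 6515 CPM in precursors and 14981 CPM in mature oligodendrocytes.

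Identity and proteoglycan genes were mostly higher in precursors than in mature oligodendrocytes. Of 17 identity genes 13 were higher and none lower, and of 20 proteoglycan and tenascin genes 15 were higher and 1, the link protein HAPLN2, lower. SUSD5 stood at 66.6, 109.8 and 161 CPM in precursors, against 0, 0.883 and 3.54 CPM in mature oligodendrocytes (46.9-fold higher, interval 36.6 to 61.2). Mature oligodendrocytes of libraries 5 to 8 held no SUSD5 count, so their pooled level rests on libraries 1 to 4. TNR was 28.5-fold higher (27.4 to 29.7), SLC22A3 45.3-fold higher (36.0 to 57.7) and NTN1 27.3-fold higher (24.4 to 30.6). Mature oligodendrocytes held no SLC22A3 count in libraries 5 to 7 and no NTN1 count in libraries 7 and 8. The netrin receptor UNC5C ran the other way and was 7.52-fold lower (7.32 to 7.73), and of 29 guidance genes 10 were higher and 4 lower. Of 25 transcription factors 8 were higher, with SOX6 11.4-fold higher (11.001 to 11.8), and 4 lower, with ST18 15.7-fold lower (14.5 to 17.2). SOX10 was neither, at 131 CPM in precursors and 138 CPM in mature oligodendrocytes.

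Glutamate receptor subunits showed a clear difference within the lineage. Of 16 ionotropic subunits 9 were higher in precursors than in mature oligodendrocytes and none lower (56.2%, beside 10.9% of all measured genes). The AMPA subunit GRIA4 stood at 303, 467 and 987 CPM in precursors, against 89.2, 153 and 241 CPM in mature oligodendrocytes. The kainate subunit GRIK3 stood at 210.1, 232 and 272 CPM in precursors, against 16.8, 30.7 and 88.2 CPM in mature oligodendrocytes. Neither pair of ranges overlapped, and pooled GRIA4 was 6.88-fold higher (6.58 to 7.20) and GRIK3 10.1-fold higher (9.16 to 11.1). Of 7 metabotropic receptors 3 were higher, with GRM5 3.87-fold higher, and 1 lower, GRM3 4.11-fold lower. Of 11 GABA-A subunits 4 were higher, led by GABRB1 (4.19-fold higher) and GABRA3 (4.17-fold higher), and none lower. Of 18 sodium and calcium channels 8 were higher and none lower, with CACNG4 34.8-fold higher (30.2 to 40.3), and of 22 potassium channels 11 were higher and 2 lower. Of 30 synaptic adhesion genes 12 were higher, led by PTPRT at 850.1 CPM in precursors and 97.7 CPM in mature oligodendrocytes, and 3 lower.

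Equal weights of libraries and the handling of doublets moved some values by over 1.5 times. Libraries 5 to 8 held 61 to 76 mature oligodendrocytes each. Equal weights of libraries gave log2 ratios of 4.11 for CACNG4 (5.12), 4.24 for TNR (4.83), 1.91 for GRIA4 (2.78), 2.54 for GRIK3 (3.33), 1.37 for GABRB1 (2.07) and 6.38 for SUSD5 (5.55), all in the direction of the pooled value in parentheses. Without simulated doublets the log2 ratio was -5.53 for MBP (-4.52), -5.52 for OPALIN (-4.49), -5.01 for MOBP (-4.30), -5.32 for RNF220 (-4.43), -4.66 for ST18 (-3.98), 5.52 for TNR (4.83), 5.82 for CACNG4 (5.12) and 6.30 for SLC22A3 (5.50). Without precursors that met another rule it was -5.78 for MBP (-4.52), -5.61 for OPALIN (-4.49), -5.09 for MOBP (-4.30), -5.51 for RNF220 (-4.43) and -4.65 for ST18 (-3.98).

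Against astrocytes, the other macroglial class, 602 of 10007 measured genes (6.02%) were higher in precursors and 902 (9.01%) lower. In libraries 1 to 4 alone 745 were higher and 1155 lower. Of 17 identity genes 15 were higher and none lower. TNR stood at 1488, 2812 and 3913 CPM in precursors, against 153, 227 and 279.7 CPM in astrocytes. MYT1 stood at 216, 238 and 281 CPM in precursors, against 5.53, 15.0 and 28.0 CPM in astrocytes. The library ranges were far apart for both, and TNR was 16.3-fold higher (15.8 to 16.8) and MYT1 16.8-fold higher (14.8 to 19.0). NEU4, a sialidase, was 16.6-fold higher (13.8 to 20.001), SULF2, an extracellular sulfatase, 12.2-fold higher (11.5 to 13.02), and OLIG2 5.64-fold higher (4.78 to 6.67). Of 22 potassium channels 10 were higher, led by KCNH8 (8.63-fold higher), and 2 lower, and of 17 ionotropic glutamate subunits 8 were higher, led by GRIA4 (5.19-fold higher) and GRIK3 (4.29-fold higher), and 1 lower. Of 30 synaptic adhesion genes 11 were higher, with DSCAM 8.59-fold higher (8.41 to 8.76), and none lower. The neuregulin receptor ERBB3 was 3.81-fold higher (3.41 to 4.26). Of 17 myelin genes 10 were also higher and none lower. Precursors kept the 130 nuclei that also met the mature rule, whereas the astrocyte class left out nuclei of more than 1 rule. The 7 mature markers in the matrix summed to 1476 CPM in precursors and 700 CPM in astrocytes. Without precursors that met another rule the sum was 1015 CPM, and the part of these nuclei in the myelin count was not tested.

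Notch, BMP and ID genes, receptors and Wnt genes had more members lower than higher against astrocytes, and so did transporters (5 of 15 lower, 3 higher). The glutamate transporters SLC1A2 and SLC1A3 are 2 of these 5 and are also among the markers that chose the astrocytes, so their lower level follows from that choice. SLC1A2 stood at 492, 1074 and 2331 CPM in precursors, against 7277, 8448 and 9561 CPM in astrocytes, and its highest precursor values were those of libraries 5 to 8. TNC, tenascin-C, stood at 28.5, 98.8 and 267 CPM in precursors, against 618, 725 and 911 CPM in astrocytes. SLC1A2 was 11.2-fold lower (11.01 to 11.5), TNC 12.1-fold lower (11.3 to 12.99) and ALDH1A1, which makes retinoic acid, 15.0-fold lower (14.0 to 16.001). SLC1A1, another glutamate transporter, ran the other way and was 5.29-fold higher (4.98 to 5.62). Of 17 Notch, BMP and ID genes 6 were lower, with ID4 7.90-fold lower (6.86 to 9.14), and 2 higher. Of 21 receptors 8 were lower and 3 higher, and of 20 Wnt genes 8 were lower, with the secreted inhibitor WIF1 10.8-fold lower (9.93 to 11.8), and 3 higher. GRM3 was 7.35-fold lower (7.03 to 7.70), and none of 7 metabotropic receptors was higher while 2 were lower. Of 25 transcription factors 7 were higher and 2 lower, with SOX9 2.81-fold lower. Without precursors that met another rule, the log2 ratio was -4.22 for SLC1A2 (-3.49), -4.49 for TNC (-3.60) and -4.90 for ALDH1A1 (-3.91), with the value of all precursors in parentheses. With equal weights of libraries it was -2.82 for SLC1A2 (-3.49), -2.75 for TNC (-3.60) and -3.18 for ALDH1A1 (-3.91), and in libraries 1 to 4 alone -4.15 for SLC1A2 (-3.49), -4.49 for TNC (-3.60) and -4.67 for ALDH1A1 (-3.91).

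Across all genes at 10 CPM or more in either class, log2(CPM + 1) of precursors correlated with that of newly formed oligodendrocytes at Pearson r = 0.901 over 9485 genes, all other nuclei at 0.879 over 9956, astrocytes at 0.864 over 10007 and mature oligodendrocytes at 0.814 over 9647. These values are across genes, which are not replicates, the classes share libraries and gene lengths, and newly formed and mature nuclei differ in depth.

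Levels within precursors also differed between libraries, which share no known group. Of 2150 genes with a symbol at 100 CPM or more in precursors, 222 (10.3%) differed at least 2-fold between the highest and the lowest library, beside 11.7% of the same genes in all other nuclei. Among the 10 genes of largest ratio were TMSB4X, FKBP5, CDH19, ADGRV1, ACTB, SLC4A4, SEMA3E, SLIT3 and TENM2. TMSB4X, an actin-binding peptide, had 237, 224, 184, 168, 22.7, 9.09, 30.6 and 20.4 CPM in precursors of libraries 1 to 8, and 155, 152, 139, 135, 23.8, 23.8, 21.2 and 20.4 CPM in the other nuclei. ACTB, cytoplasmic actin, had 159.6, 143, 122, 129, 36.9, 36.3, 34.2 and 17.0 CPM in precursors and 110.2, 107, 96.7, 93.4, 22.3, 19.7, 20.1 and 19.4 CPM in the other nuclei. Both were lower in libraries 5 to 8 in precursors and in the rest alike.

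FKBP5, a co-chaperone induced by glucocorticoids, had 353, 352, 436, 445, 70.9, 56.0, 32.4 and 71.4 CPM in precursors and 215, 230.4, 314, 309, 36.5, 34.3, 32.9 and 32.9 CPM in the other nuclei. CDH19, a cadherin, had 191, 171, 379.7, 374, 36.9, 33.3, 37.8 and 34.0 CPM in precursors and 27.1, 26.5, 88.1, 88.3, 5.29, 5.58, 5.74 and 6.25 CPM in the other nuclei. Both were lower in libraries 5 to 8, and CDH19 was highest in libraries 3 and 4, which also held the largest share of mature oligodendrocytes (24.5 and 23.3%, against 1.05 to 9.22% elsewhere). The part of that share in the CDH19 values was not tested.

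ADGRV1, an adhesion G protein-coupled receptor of astrocytes, had the opposite order. It had 286, 262, 174, 199.6, 1765, 1473, 1291 and 1253 CPM in precursors of libraries 1 to 8 and 637, 661, 459, 463, 459, 454, 479.8 and 459.7 CPM in the other nuclei. SLC4A4, a sodium bicarbonate cotransporter of astrocytes, had 150.4, 157, 86.1, 95.9, 651, 472, 514 and 505 CPM in precursors and 341, 331, 219, 209.8, 245, 247, 245 and 244 CPM in the other nuclei. Both were higher in precursors of libraries 5 to 8 than in those of libraries 1 to 4, while the other nuclei showed no such step. The highest library exceeded the lowest 10.1-fold for ADGRV1 and 7.56-fold for SLC4A4. Without precursors that met another rule these ratios were 8.84 and 5.65, but the levels of both genes were lower in every library. ADGRV1 then had 215, 178, 119, 128, 1051, 887, 654 and 480 CPM in libraries 1 to 8. SLC4A4 had 149, 133, 79.0, 75.7, 427, 296, 275 and 257 CPM. The summed astrocyte markers moved in the same libraries, as given above, and their part in these 2 genes was not tested.

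SLIT3 had 119, 129.7, 53.4, 57.8, 342, 236, 295 and 350.3 CPM in precursors of libraries 1 to 8, and TENM2 140.2, 129, 50.02, 73.1, 267, 283, 249.9 and 304 CPM. Both were higher in every library from 5 to 8 than in any from 1 to 4, in precursors and in the other nuclei alike. The general neuron markers moved in the same libraries of precursors, with sums of 3973 to 4315 CPM in libraries 5 to 8 and 2363 to 3520 CPM in libraries 1 to 4, and their part in SLIT3 and TENM2 was not tested. SEMA3E had 112, 99.2, 149, 138, 22.7, 53.0, 55.7 and 27.2 CPM in precursors, lower in libraries 5 to 8. Among the markers checked, 3 differed at least 2.5-fold: VCAN 4.92-fold, STK32A 2.88-fold and TNR 2.63-fold. In the other nuclei VCAN differed 3.34-fold, STK32A 13.2-fold and TNR 1.21-fold. SOX10, LHFPL3, PCDH15 and PTPRZ1 differed 1.29, 1.297, 1.39 and 1.40-fold. LHFPL3 and PCDH15 are rule markers, so their spread is not independent of the rule. With only 130 to 175 precursors in each of libraries 5 to 8, low genes there rest on few counts, and with the 4132 precursors of at least 1000 UMIs thinned to that depth (35 shallower ones left out) 522 genes were past 2-fold.

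**Figure D5:**
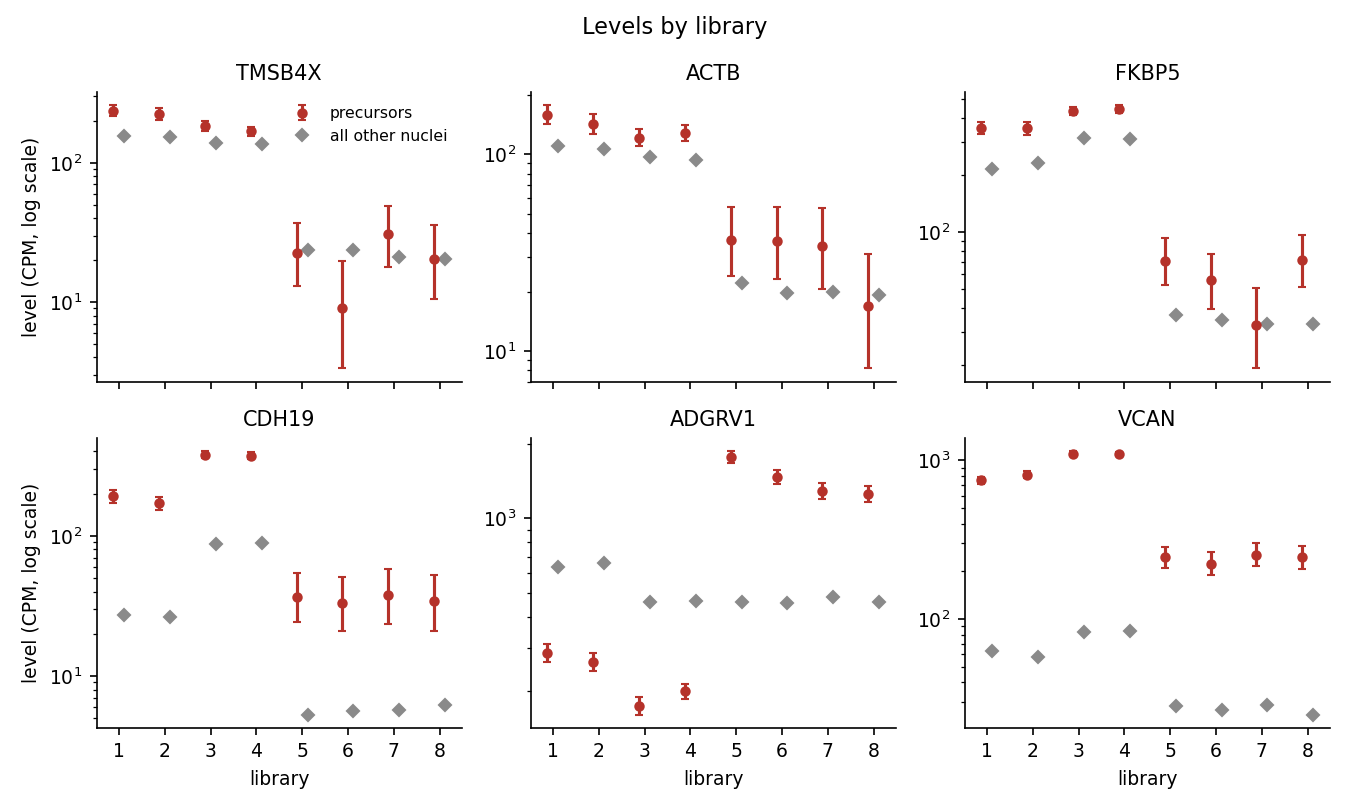
Levels (CPM, log scale) of 6 genes in precursors (circles, with exact 95% intervals) and in all other nuclei (diamonds) of libraries 1 to 8. TMSB4X, ACTB, FKBP5, CDH19 and VCAN were lower in both classes in libraries 5 to 8. ADGRV1 reached 1253 to 1765 CPM there in precursors, with no such step in other nuclei. VCAN stood at 224 to 255 CPM in precursors of libraries 5 to 8 and at 751 to 1104 CPM in those of libraries 1 to 4. In other nuclei VCAN stood at 25.1 to 29.0 CPM and at 58.2 to 83.8 CPM in these libraries.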

How the data were processed

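Nuclei of frozen brain tissue from 2 pools, 4 sevoflurane samples of 1 macaque and 4 control samples of 2 macaques, were sequenced with droplet 3′ chemistry, per the labels. The authors deposited 1 matrix of raw UMI counts per gene and nucleus (21748 genes, 59749 barcodes, 8 libraries) made with software version 3.1.0, per the file headers. CASAVA 1.8, Cell Ranger and Seurat are named in the submitters' processing notes; neither build nor gene annotation is named in those sources, and genes of the mitochondrial genome were not used. The aliquots are not separate animals, and no library is tied to a group. Technical spread, animal and treatment thus cannot be told apart in the differences between libraries.

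Nuclei with fewer than 500 UMIs or 300 genes were removed (1529, all in libraries 5 to 8). Libraries held 35806547 to 47007082 UMIs and precursors 13685170 UMIs in all. Members and the 20 gene lists were chosen with earlier results of these data known. Counts were summed per class and library and given as CPM. A gene was called at 10 CPM or more in either class, 2-fold difference and the same direction in each library with 50 nuclei of both classes. Mature oligodendrocytes and astrocytes had at least 4 class markers seen and 40 summed marker UMIs per 10000. Nuclei that met the rule of more than 1 class were left out of newly formed oligodendrocytes, mature oligodendrocytes and astrocytes, but were kept in the precursors. Intervals were exact (Poisson, binomial and conditional binomial, 95%). Named genes were, per comparison, up to 2 called genes of largest ratio per list and direction, the 8 of largest ratio per direction at 50 CPM or more in the higher class, the 4 of highest CPM, and the markers; between libraries, the 10 of largest ratio at 100 CPM or more. Of these 334 values the text gives those of clear role, mostly with a call kept under every alternative; other list members were added after their values were seen. Of 21748 gene rows, 686 names came from the symbol table and 4596 have an identifier only. No doublets were removed in the main result. Scripts were tested on simulated data. Tools were python 3.11.15, numpy 2.4.6, scipy 1.17.1, pandas 2.3.3, scikit-learn 1.9.0 and matplotlib 3.10.9. Alternatives covered the marker thresholds, gene minimum, doublets, other class rules, free RNA, TMM scaling, equal weights, CPM minimum and each library left out. Some genes that the rule names are not reported here.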

Additional observations from a re-analysis of the deposited data

How the results depend on the processing

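No paired analysis was possible because the replicate numbers 1 to 4 that the labels share between sevoflurane and control are carried by no library of the matrix. The share of precursors (7.16%) was 7.75% with summed markers of at least 25 per 10000, 6.61% with at least 60, 5.90% with 5 of 7 markers, 7.70% with 3 of 7, 5.84% with 0 UMIs of ENPP6 and GPR17, 7.52% with at least 1000 genes and 6.66% without precursors that met another rule. Leaving out each library in turn gave 6.02 to 7.68% and 2928 to 4037 nuclei; libraries 3 and 4 gave the lowest values when left out. With each library left out, 617 to 666 genes were higher and 989 to 1031 lower against all other nuclei, 843 to 994 and 433 to 478 against newly formed oligodendrocytes, 1051 to 1107 and 659 to 688 against mature oligodendrocytes, and 586 to 626 and 870 to 955 against astrocytes. The number of genes past 2-fold between libraries was 522 after thinning to 1000 UMIs (222 without it) and 248 without precursors that met another rule. BCAS1 was seen in 57.9% of precursors with 0 UMIs of ENPP6 and GPR17 before thinning and 32.8% after it; the cause of these moves was not tested. Of 334 log2 ratios of named genes, 0 turned direction under any alternative, 23 lost their call under at least 1, and 98 moved by over 1.5 times. Depth limits low genes in libraries 5 to 8, which held 130 to 175 precursors each.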
